A study of Homo sapiens with 3 samples.

Results

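The 9 genes HLA-B, HLA-C, HLA-E, B2M, TAP1, TAP2, TAPBP, PSMB8 and PSMB9 encode parts of the pathway that displays intracellular peptides on MHC class I molecules. Members were found by gene symbol in the platform annotation, which gave 23 probe sets for the 9 genes, out of 54675 probe sets and 19775 genes on the array. Another 6 probe sets carried several HLA symbols, all of them class II symbols and none naming a member, so no member value rests on a probe set with several symbols. A probe set whose suffix marks possible cross-hybridisation to related transcripts (s, x or a) is called a shared-target probe set below, and 15 of the 23 were of this kind.

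The arrays held RNA from a colorectal cancer cell line that stably expressed virus-borne LATS2, a Hippo pathway kinase that phosphorylates YAP and TAZ (called LATS2 here), or residues 1 to 625 of that protein, without its kinase domain (LATS2N), or that was infected with an empty-vector virus (control). Each group was 1 sample on 1 array, and all were virus-infected and grown in the same serum-containing medium. The sample labels name the line SW620 and the series' design text names it SW480. Of 12 colon epithelial markers all reached the floor defined below on an array: KRT8, an epithelial keratin, read 33589 on LATS2, 33065 on LATS2N and 30042 on control, its partner keratin KRT18 read 47247, 45854 and 43054, whereas KRT20, a marker of mature colon epithelium, read 112, 127 and 109. PTPRC, the common leucocyte antigen, read 19.7 on LATS2, 15.8 on LATS2N and 15.7 on control. For the LATS2 transcript, 1 probe set read 377 on LATS2, 409 on LATS2N and 385 on control, another read 219, 219 and 206, and both others stayed below the floor. The stretch of transcript that they read, inside or outside the inserted sequence, is not given in the sources used here, so they check no label.

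Class I heavy chains such as HLA-B and HLA-C pair with the light chain beta-2 microglobulin in the endoplasmic reticulum, bind a peptide and carry it to the cell surface, where CD8 T cells read it. Peptides are cut in the cytosol by the proteasome, whose catalytic subunits can be exchanged for the interferon-inducible immunosubunits, and enter the endoplasmic reticulum through the TAP transporter. Interferon raises most of these genes together, and tumours, those of the colon included, are known to lose single components.

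The values are MAS5 signals on a linear scale, each array scaled to a trimmed mean of 500. Signals under the median of all signals, 50.5, were set to that value, the floor, and log2 ratios were computed from the result. A gene is represented by its probe set of highest mean log2 signal and is called higher or lower when floored signals differ at least 2-fold. With 1 array per group there is no replicate, no error between cultures and no test, so each call is a statement of size about these arrays. Different probe sets for 1 gene give a spread within the arrays, a robust SD per log2 ratio that describes probe sets and not cultures: for LATS2 against control it was 0.34 at dimmer signals of 100 to 200, 0.27 at 200 to 500, 0.18 at 500 to 2000 and 0.11 above 2000. In RNA from a whole culture, fewer cells with a transcript and less transcript per cell cannot be told apart.

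All 9 genes reached the floor on every array. Of them, 1 was called at 2-fold, PSMB8, higher on LATS2N than on control and lower on LATS2 than on LATS2N, while none was called in LATS2 against control. Over all genes, 0.944% were called higher in LATS2N against control and 0.566% lower, 1.00% were called lower and 0.592% higher in LATS2 against LATS2N, and 0.963% were called higher and 0.842% lower in LATS2 against control. The heavy chains and B2M differed little, and TAP2 and TAPBP were lower on both construct arrays. The immunosubunits PSMB8 and PSMB9 read highest on LATS2N, as did the heavy chains, B2M and TAP1 with smaller ratios to control. Since LATS2 and LATS2N are set against the same control array, a reading of that array moves both ratios.

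**Figure D1:**
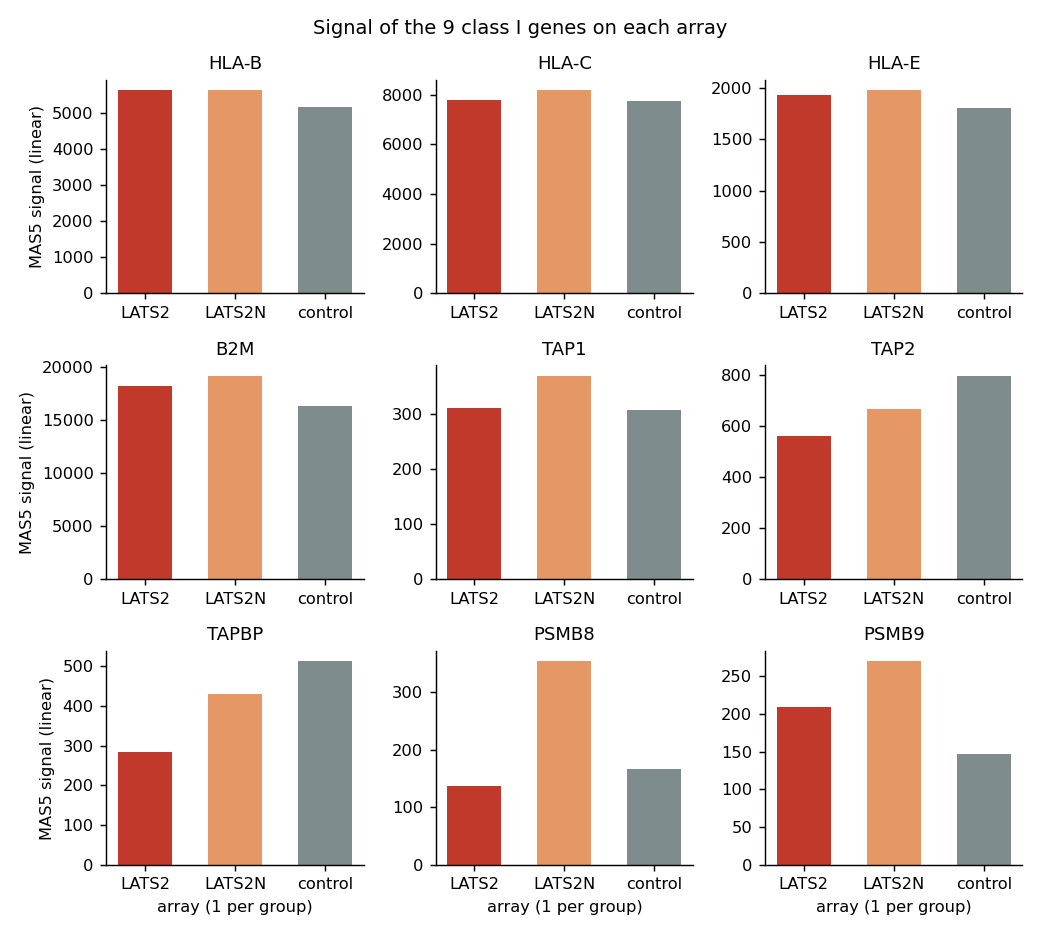
Signal of each class I gene on the LATS2, LATS2N and control arrays, 1 panel per gene with its own linear axis from 0 and 1 bar per array, so no error bars exist. HLA-B, HLA-C, HLA-E and B2M are nearly level, TAP2 and TAPBP are lowest on LATS2 and highest on control, and PSMB8 stands at 353 on LATS2N, against 166 on control.

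The heavy chain genes were close to level across the arrays. HLA-B, a classical heavy chain, read 5619 on LATS2, 5631 on LATS2N and 5158 on control. HLA-C, another classical heavy chain and a major ligand of inhibitory receptors on natural killer cells, read 7769 on LATS2, 8196 on LATS2N and 7747 on control. HLA-E, which presents leader peptides of other class I proteins to the natural killer receptor NKG2A, read 1929 on LATS2, 1982 on LATS2N and 1809.6 on control. For these 3 genes the control array was the lowest, by log2 differences of 0.12, 0.00 and 0.09 for LATS2 and 0.13, 0.08 and 0.13 for LATS2N. Only the HLA-B values exceeded the spread between probe sets at their signals, 0.11 for LATS2 and 0.09 for LATS2N, and HLA-B also had a probe set below control on LATS2.

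The separate heavy chain probe sets were less uniform than these 3. Of 10 probe sets, all above the floor on every array, 7 were higher and 3 lower on LATS2 than on control, with a median log2 ratio of 0.04, and 9 were higher and 1 lower on LATS2N, with a median of 0.12. The HLA-C probe set 211799_x_at had the largest ratios, reading 936 on LATS2, 923 on LATS2N and 648 on control, log2 differences of 0.53 and 0.51, where the 3 other HLA-C probe sets lay between -0.07 and 0.07 on LATS2. The HLA-B probe set 211911_x_at read 2748 on LATS2, 3599 on LATS2N and 3283 on control, below control on LATS2 only. HLA-E had 1 probe set without a shared-target suffix, 200904_at, and it ran opposite to the other HLA-E probe sets, with 192 on LATS2, 177 on LATS2N and 228 on control. Class I heavy chain transcripts are alike in sequence and vary between alleles, so a probe set may read several of these genes, and the part of this in the differences was not tested.

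B2M encodes beta-2 microglobulin, without which heavy chains do not reach the surface. It read 18243 on LATS2, 19228 on LATS2N and 16316 on control. A second probe set gave 12447 on LATS2, 13019 on LATS2N and 11456 on control, the same order of arrays. Their log2 ratios to control were 0.16 and 0.12 on LATS2 and 0.24 and 0.18 on LATS2N. A shift of 0.24 is a 1.18-fold difference and exceeds the spread between probe sets of 0.09 at this signal in LATS2N against control, and 80.4% of all genes that reached the floor had a smaller ratio there. The third B2M probe set stayed below the floor on every array.

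**Figure D2:**
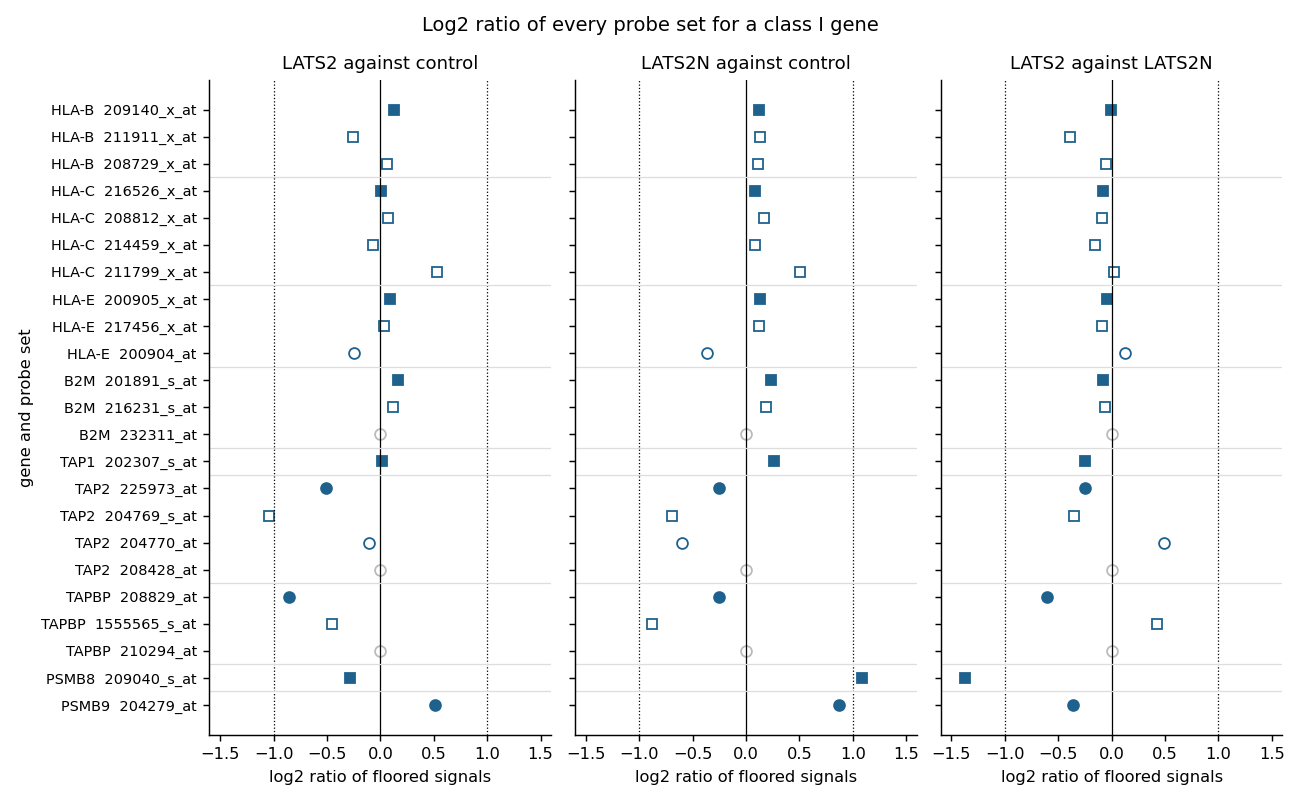
Log2 ratio of floored signals for each of the 23 probe sets, 1 panel per comparison. Squares mark shared-target probe sets and circles the others, filled symbols mark the probe set that represents the gene, grey symbols mark probe sets below the floor on all arrays, and dotted lines mark 2-fold. Most heavy chain and B2M symbols lie near 0, the TAP2 and TAPBP symbols lie at or left of 0 against control, and PSMB8 lies beyond the 2-fold line for LATS2N against control and for LATS2 against LATS2N.

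The peptide transporter and tapasin differed more. TAP2, which with TAP1 forms the transporter that moves peptides into the endoplasmic reticulum, read 562 on LATS2, 668 on LATS2N and 798 on control with the probe set 225973_at. Both construct arrays were thus below control, by 1.42-fold for LATS2 and 1.19-fold for LATS2N, neither of which reached the call. The probe set 204769_s_at gave a larger difference, with 278 on LATS2, 354 on LATS2N and 572 on control. It was 2.06-fold lower on LATS2 and 1.61-fold lower on LATS2N, and of the 20 member probe sets that reached the floor it was the 1 past 2-fold in LATS2 against control, where 1.15% of all probe sets were lower by that size. Probe set 204770_at read 71.0 on LATS2, 29.7 on LATS2N and 76.3 on control, and the fourth stayed below the floor. The 3 TAP2 probe sets that reached the floor were therefore lower than control on both construct arrays, by amounts that differed between them.

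TAPBP encodes tapasin, which bridges the transporter to empty class I molecules and edits their peptide. It read 283 on LATS2, 429.6 on LATS2N and 512 on control, lower by 1.81-fold on LATS2 and by 1.19-fold on LATS2N. The LATS2 difference, a log2 ratio of -0.86, exceeded the 0.27 spread between probe sets at this signal, and 1.54% of all genes had a lower ratio. A second, dimmer probe set, 1555565_s_at, read 91.3 on LATS2, 68.1 on LATS2N and 125.3 on control. Both were below control on both construct arrays, but they placed LATS2 and LATS2N in opposite order, with log2 ratios of LATS2 against LATS2N of -0.60 and 0.42. The third TAPBP probe set stayed below the floor.

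TAP1 differed from its partner TAP2. It was read by 1 probe set, a shared-target one, with 309.9 on LATS2, 369 on LATS2N and 307 on control. The log2 ratio against control was 0.01 for LATS2 and 0.27 for LATS2N, against -0.51 and -0.26 for TAP2. The LATS2N value of 0.27 is little above the spread of 0.24 between probe sets at this signal.

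Of the probe sets that represent the genes, those of the immunosubunits had the largest member ratios in LATS2N against control. PSMB8, the catalytic subunit beta-5i, read 136 on LATS2, 353 on LATS2N and 166 on control, so the LATS2N array stood apart and the other arrays were alike. It was 2.13-fold higher on LATS2N than on control, a log2 ratio of 1.09 against a spread between probe sets of 0.34, and 2.59-fold lower on LATS2 than on LATS2N. Against control the LATS2 array had a log2 ratio of -0.28, within that spread. Of all genes, 99.3% had a smaller ratio in LATS2N against control and 0.22% had a smaller one in LATS2 against LATS2N. By probe sets, PSMB8 was again the 1 call among members, where 0.932% of all probe sets were higher on LATS2N than on control and 1.10% lower on LATS2 than on LATS2N. Among genes whose brighter signal was 200 to 500, as for PSMB8, 1.24% were called higher in LATS2N against control. PSMB8 was read by 1 shared-target probe set, so there is no second reading to set beside it, and both calls were lost without such probe sets and with the floor at the 75th percentile of all signals, which lies above every PSMB8 signal.

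PSMB9, the subunit beta-1i, read 209.5 on LATS2, 269.5 on LATS2N and 147 on control. Both construct arrays were above control, by 1.42-fold for LATS2 and 1.83-fold for LATS2N, and neither reached the call. At a lower limit of 1.5-fold, PSMB8 and PSMB9 were the 2 members higher on LATS2N than on control, where 4.86% of all genes were, TAPBP was the 1 member lower on LATS2 than on control, where 4.41% of all genes were, and TAPBP and PSMB8 were the 2 lower on LATS2 than on LATS2N, where 5.07% were. PSMB9 too was read by 1 probe set. The subunits therefore shared the highest array, LATS2N, as did HLA-B, HLA-C, HLA-E, B2M and TAP1. On LATS2, PSMB9 was above control, while PSMB8 was below it by less than the spread between probe sets.

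The constitutive subunits that beta-5i and beta-1i replace differed by log2 ratios of at most 0.18. PSMB5, replaced by PSMB8, had a log2 ratio to control of -0.02 on LATS2 and -0.00 on LATS2N, and PSMB6, replaced by PSMB9, had 0.18 and 0.04. The log2 ratio of the immunosubunit minus that of its constitutive partner was thus 1.09 for PSMB8 and 0.84 for PSMB9 in LATS2N against control, and -0.27 and 0.33 in LATS2 against control. PSMB10, the third immunosubunit, read 776 on LATS2, 912 on LATS2N and 908 on control. It was thus level in LATS2N against control, with a log2 ratio of 0.01, and lower on LATS2 than on the others, and its log2 ratio minus that of PSMB7, its constitutive partner, was -0.01 in LATS2N and -0.28 in LATS2 against control. Immunosubunits are abundant in leucocytes: of 12 fixed leucocyte markers 10 had a probe set, 5 of them reached the floor on any array, and their summed signal was 489 on LATS2, 644 on LATS2N and 635 on control, close on LATS2N and control and lower on LATS2. Of the 4 that reached the floor on LATS2 or control, 2 were higher and 2 lower on LATS2, and most of the gap in the sum was CD79A, with 149.9 on LATS2, 264 on LATS2N and 281 on control. PTPRC was below the floor throughout. The samples were cultures of a colorectal cancer cell line, and which transcripts these marker probe sets read there was not tested.

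**Figure D3:**
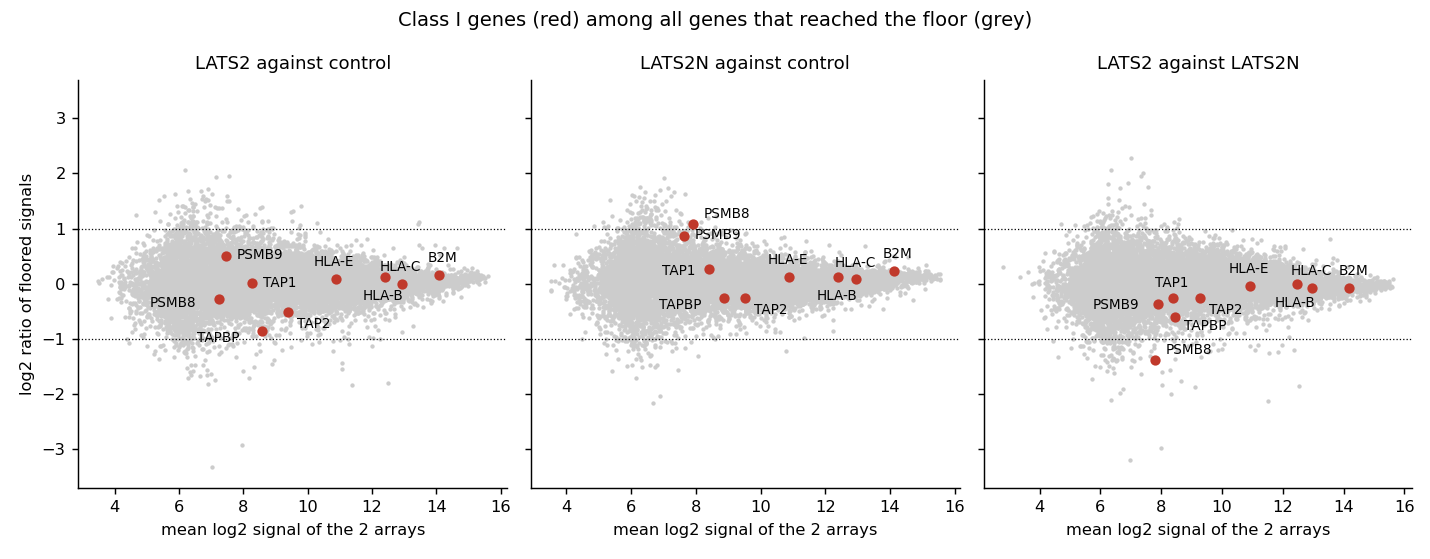
Log2 ratio of floored signals (vertical axis) against the mean log2 signal of the 2 arrays compared (horizontal axis) for every gene that reached the floor (grey) and the class I genes (red), with dotted lines at 2-fold. PSMB8 lies above the upper line for LATS2N against control and below the lower line for LATS2 against LATS2N, at signals where the grey cloud is wide, and B2M and the heavy chains lie at the bright end near 0.

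Seen as a group, the 9 genes had a median log2 ratio of 0.01 in LATS2 against control, with 6 above and 3 below 0, beside 0.03 over all 13186 genes that reached the floor. In LATS2N against control the median was 0.13, with 7 above and 2 below 0, beside 0.02 over 13245 genes. In LATS2 against LATS2N the median was -0.25, and 9 of 9 members read lower on LATS2, beside a median of 0.01 over 13175 genes, of which 52.3% had a ratio above 0, although HLA-B turned to 0.04 and HLA-E to 0.01 with each array centred on its median signal, and HLA-B to 0.03 after quantile normalisation. With the median over probe sets TAP2 turned to 0.40 and TAPBP to 0.42 in that comparison, and without shared-target probe sets HLA-E turned to 0.12. The TAP2 median takes in probe sets below the floor on LATS2N. The 2 TAP2 probe sets above the floor on every array gave -0.25 and -0.35 for LATS2 against LATS2N. Without shared-target probe sets the medians against control were -0.38 for LATS2 and -0.25 for LATS2N over 4 members. In the deposited values, before any rescaling, 6 members (HLA-B, HLA-C, HLA-E, B2M, TAP1 and PSMB9) were highest on LATS2N and lowest on control, TAP2 and TAPBP were highest on control and lowest on LATS2, and PSMB8 was highest on LATS2N and lowest on LATS2. These orders were held by 16.2%, 14.9% and 15.6% of the 11534 genes that cleared the floor on every array. Within them, LATS2 and LATS2N differed by no more than the spread between probe sets for HLA-B, HLA-C, HLA-E, B2M and TAP1, and so did LATS2 and control for HLA-C, HLA-E, TAP1 and PSMB8.

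TAP2, PSMB8, TAP1 and PSMB9 are neighbours in the class II part of the MHC on chromosome 6 (RefSeq, assembly GRCh38.p14), and among them TAP2 was lower than control on both construct arrays while PSMB9 was higher on both. PSMB8-AS1, a non-coding gene between PSMB8 and TAP1, read 43.0 on LATS2, 74.5 on LATS2N and 55.3 on control. These were in the same order of arrays as PSMB8, but below the floor on LATS2 and close to it on the others. Its other probe set stayed below the floor on every array. HLA-DOB, next to TAP2 on the far side from PSMB8, was below the floor on every array. By the likeness of centred log2 signals over the 3 arrays, the genes nearest to PSMB8 among 7499 genes above the floor on all arrays and above 500 on 1 of them were CXCL1, APOC1, CXCL8, FXYD3 and LBH, at Euclidean distances of 0.27 to 0.38. CXCL1, a neutrophil-attracting chemokine, read 2411 on LATS2, 5658 on LATS2N and 3458 on control. CXCL8, or interleukin 8, read 680.01 on LATS2, 1547 on LATS2N and 1014 on control. Both were highest on LATS2N and lowest on LATS2, as was PSMB8. That order follows from their choice by likeness to PSMB8, a measure that rests on 3 arrays. It was held by 15.6% of the genes above the floor on every array.

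Promoter windows from RefSeq (GRCh38.p14, 250 bases before to 50 after a start site) were matched for 8 of the 9 members, 10 windows in all. HLA-E had no window and was not searched. Those of the members that differed most, and of TAP1, the neighbour that shares its promoter region with PSMB9, are printed 5′ to 3′ on the gene's strand. Capitals mark matches to GAAANNGAA on either strand, the core of the interferon-stimulated response element (ISRE) bound by interferon regulatory factors. The windows are TAP2 (chr6:32838690-32838989, minus strand), TAPBP (chr6:33314029-33314328, minus strand), PSMB8 at the second of its listed start sites (chr6:32843998-32844297, minus strand), TAP1 at the first of its listed start sites (chr6:32853655-32853954, minus strand) and PSMB9 (chr6:32853942-32854241, plus strand).
TAP2: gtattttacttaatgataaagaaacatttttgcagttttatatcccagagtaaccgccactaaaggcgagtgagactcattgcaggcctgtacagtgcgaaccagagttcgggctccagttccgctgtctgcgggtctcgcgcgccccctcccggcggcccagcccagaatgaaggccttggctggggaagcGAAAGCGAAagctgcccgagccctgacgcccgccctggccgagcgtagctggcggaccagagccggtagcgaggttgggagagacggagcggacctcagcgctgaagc
TAPBP: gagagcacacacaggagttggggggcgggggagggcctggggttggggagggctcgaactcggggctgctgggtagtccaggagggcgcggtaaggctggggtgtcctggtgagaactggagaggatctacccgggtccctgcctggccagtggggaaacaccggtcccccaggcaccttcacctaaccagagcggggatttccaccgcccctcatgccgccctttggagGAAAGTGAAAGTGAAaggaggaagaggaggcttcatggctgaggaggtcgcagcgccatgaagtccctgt
PSMB8: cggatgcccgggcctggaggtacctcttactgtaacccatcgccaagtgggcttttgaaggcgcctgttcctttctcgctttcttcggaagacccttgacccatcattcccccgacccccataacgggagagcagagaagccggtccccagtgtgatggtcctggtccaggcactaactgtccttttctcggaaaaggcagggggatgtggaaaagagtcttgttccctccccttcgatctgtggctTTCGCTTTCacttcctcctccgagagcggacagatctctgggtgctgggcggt
TAP1: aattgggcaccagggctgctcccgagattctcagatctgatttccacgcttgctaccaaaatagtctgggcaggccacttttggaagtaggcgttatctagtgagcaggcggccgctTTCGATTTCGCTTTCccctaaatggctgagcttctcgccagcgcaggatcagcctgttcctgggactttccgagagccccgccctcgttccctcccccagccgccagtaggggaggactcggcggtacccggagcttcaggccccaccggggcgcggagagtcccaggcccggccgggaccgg
PSMB9: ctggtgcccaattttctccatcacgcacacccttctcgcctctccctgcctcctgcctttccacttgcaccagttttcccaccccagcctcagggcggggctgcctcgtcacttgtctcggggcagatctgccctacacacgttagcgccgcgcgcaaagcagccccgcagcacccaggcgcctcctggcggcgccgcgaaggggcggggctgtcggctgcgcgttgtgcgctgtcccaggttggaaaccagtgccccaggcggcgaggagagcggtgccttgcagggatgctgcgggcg

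The ISRE-like letters were in 5 of the 10 member windows (B2M, TAP1, TAP2, TAPBP and PSMB8), beside 8.11% of all 35116 windows in the table. They begin 58 bases before the start site of TAP2, 3 bases before the PSMB8 start printed, 20 and 14 bases before that of TAPBP, and 133 and 127 bases before that of TAP1. The PSMB9 window, whose far end overlaps the TAP1 window by 13 bases, holds no match, nor do the windows at the other listed start sites of PSMB8 and TAP1. These letters were thus in the windows of members highest on control, TAP2 and TAPBP, and of members highest on LATS2N, B2M, TAP1 and PSMB8. The NF-kB-like letters GGGNNTTCC were in 4 windows (HLA-B, B2M, TAPBP and PSMB8) and 6.58% of all windows, and the GAS-like letters TTCNNNGAA in 2 (PSMB8 and the other start site of TAP1, not printed) and 7.66%. The short X2-box core TGACG was in 6 member windows and 24.6% of all, and the Y-box letters ATTGG in 5 and 34.6%. Both strands were searched, and no match of one motif overlapped a match of another. A match is a description of the letters and not a bound site. Only these exact letters were searched, so forms with other letters or spacing were not counted. A window without a match may therefore still hold such a form.

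Genes that act beside the members were mostly level, and of each list the called genes and the 2 of highest mean signal are named, although signals of different probe sets do not rank abundance. Of 13 fixed genes for peptide trimming and loading, 12 had a probe set, and 1 was called, ERAP2, an aminopeptidase that trims peptides in the endoplasmic reticulum. It was 2.00-fold higher on LATS2 than on control, at the call's limit, with 150.4 on LATS2, 89.6 on LATS2N and 75.04 on control, and its 4 other probe sets were near or below the floor. The list's median log2 ratio was -0.13 for LATS2 and -0.10 for LATS2N against control. CANX (calnexin) and HSPA5 (BiP), chaperones of the endoplasmic reticulum, had log2 ratios to control of 0.10 and -0.20 on LATS2 and -0.01 and -0.15 on LATS2N. TAP2 and TAPBP were thus further below control on LATS2 than the median of this list.

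Of 13 measured constitutive 20S proteasome subunits none was called, and the medians were 0.06 for LATS2 and 0.07 for LATS2N. Of them 8 were above control on LATS2 and 12 on LATS2N. PSMB1 and PSMA7, non-catalytic subunits, had log2 ratios to control of 0.27 and 0.06 on LATS2 and 0.20 and 0.05 on LATS2N. None of the 5 measured genes of the list of proteasome activators, the assembly chaperone and PSMB10 was called. POMP, that chaperone, and PSME3, an activator subunit, had log2 ratios to control of 0.01 and -0.15 on LATS2 and 0.09 and -0.13 on LATS2N.

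Regulators of class I transcription were examined as a list of 23 genes, of which 21 had a probe set and 20 reached the floor, with none called in any comparison. Its medians were -0.07 for LATS2 and -0.05 for LATS2N against control, and IFNGR2, an interferon gamma receptor subunit, and JAK1, a kinase that signals from it, had log2 ratios to control of -0.08 and -0.11 on LATS2 and 0.29 and -0.14 on LATS2N. Chosen after their values were seen, IRF1, an interferon-induced activator of these promoters, read 603 on LATS2, 747 on LATS2N and 653 on control, and NLRC5, the class I transactivator, read 4.47, 4.51 and 9.23, below the floor. IRF1 thus had the same order of arrays as PSMB8, an order held by 15.6% of the genes above the floor on every array. Its log2 ratio for LATS2N against control was 0.19, and 0.08 with its other probe set. For LATS2 against control it was -0.12, within the spread of 0.18 between probe sets at this signal.

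**Figure D4:**
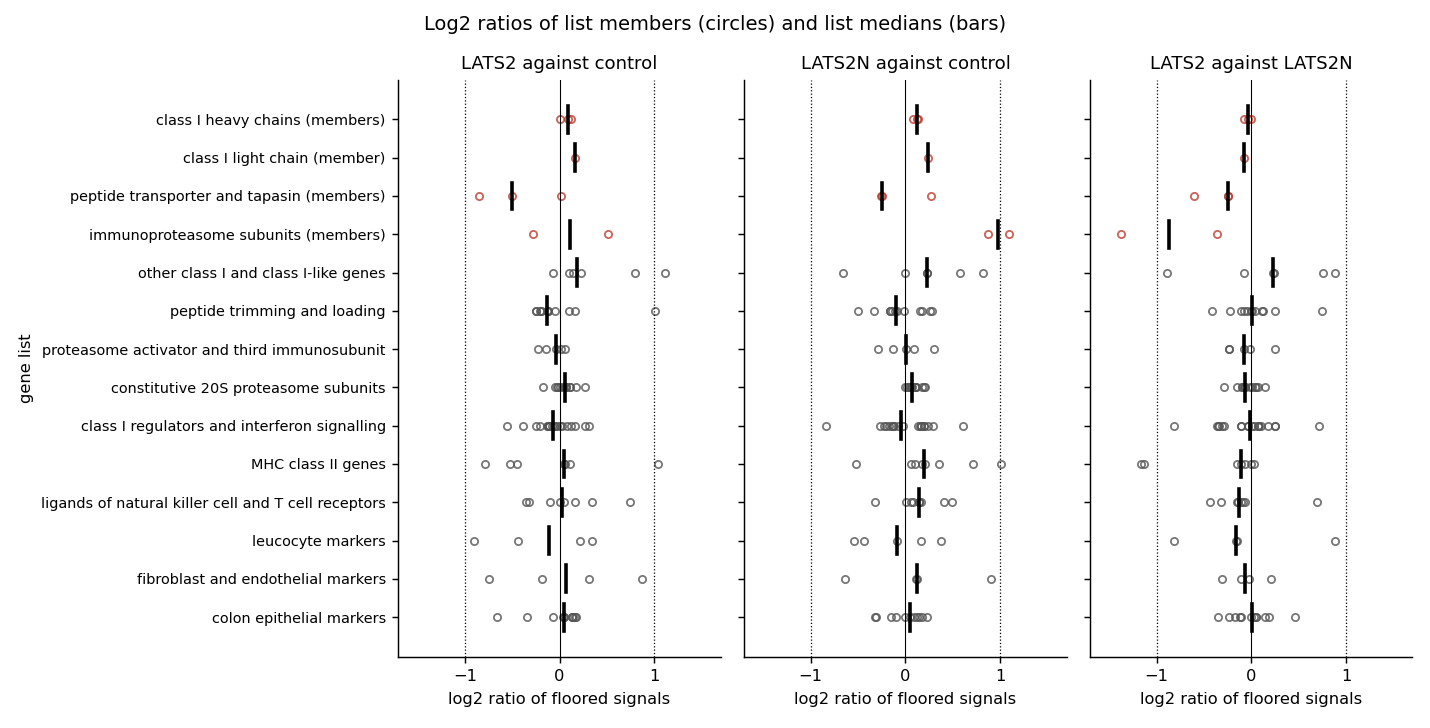
Log2 ratios of the members of each fixed list (circles, red for the class I members) and the list's median (bars) in the 3 comparisons, for genes that reached the floor on 1 of the arrays compared, with dotted lines at 2-fold. PSMB8 and the immunosubunit median, 0.98, sit furthest right for LATS2N against control, HLA-DRB1 and COL1A1 lie right of PSMB9 there, and the proteasome and regulator lists sit near 0.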

How the data were processed

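The authors deposited probe set intensities (signals) on a linear scale for 3 arrays, 1 per group. The submitters' processing notes name MAS5, without version or settings. The mean without the lowest and highest 2% of values was 500.1 on every array, from the values, and no other normalisation between arrays was seen. Of 54675 probe sets, 41091 had 1 gene symbol in the platform annotation, and 41037 of these were matched to RefSeq (GRCh38.p14) by gene ID, giving 19775 genes.

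Log2 ratios of floored signals, calls, list medians and motif matches were computed with Python 3.11.15 and pandas 2.3.3. The number of arrays limits the precision. The members and lists were chosen with earlier results of these data known. Named are all members, the called and the 2 brightest genes of each list, the 5 genes most like a called member, and LATS2. PSMB5, PSMB6, PSMB10, KRT20, PTPRC, PECAM1, HLA-DRA, COL1A2, COL3A1, IRF1, NLRC5 and the genomic neighbours were chosen for their roles with their values known. List genes without a probe set of 1 symbol were not analysed here. Other floors, probe set rules, scalings and a lower call limit were tried.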

Additional observations from a re-analysis of the deposited data

How the results depend on the processing

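No member ratio that was called changed sign under any alternative that gave it a value. With centring on the median and quantile normalisation the PSMB8 log2 ratio stayed between 1.08 and 1.09 for LATS2N against control. For LATS2 against LATS2N it stayed between -1.38 and -1.33. No floor, the lower floor and the median over probe sets could not change these ratios. PSMB8 has 1 probe set, and it was above the main floor on every array. With the floor at the 75th percentile (359.99), above every PSMB8 signal, no member was called in LATS2N against control (0, against 1) or LATS2 against LATS2N (0, against 1), and the median of the comparison of LATS2 with LATS2N was -0.076. Without shared-target probe sets PSMB8 has no probe set, both of these counts were 0, and the member medians were -0.38 for LATS2 and -0.25 for LATS2N against control over 4 members, with signs opposite to 0.01 and 0.13. At 1.5-fold the counts were 1 in LATS2 against control, 2 in LATS2N against control and 2 in LATS2 against LATS2N. With the median over probe sets, TAPBP was -0.46 for LATS2 and -0.88 for LATS2N against control. Under it TAP2, with probe sets below the floor on LATS2N taken in, was -0.97 for LATS2N against control. In LATS2 against LATS2N, TAP2 and TAPBP turned to 0.40 and 0.42 under it. HLA-B turned to -0.26 in LATS2 against control under that setting, and HLA-E to -0.25 for LATS2 and -0.37 for LATS2N without shared-target probe sets. TAP1 in LATS2 against control was -0.01 after quantile normalisation. With the median over probe sets no gene of the trimming and loading list was called in LATS2 against control (0, against 1), and none of the class II list in LATS2 against LATS2N (0, against 2). Of 167 recomputed member ratios 11 moved by more than the spread between probe sets, and the causes were not tested. Many of the 167 could not move, so this count is no measure of stability. Without a floor and with the lower floor, every member ratio was fixed, since all representing probe sets were above the main floor. Also fixed were TAP1, PSMB8 and PSMB9 under the median over probe sets, and TAP2, TAPBP and PSMB9 without shared-target probe sets. Probe sets with several HLA symbols were not run as an alternative, since none names a member. No paired analysis was possible because each group has 1 array.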

Other observations

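Other class I and class I-like genes held 1 call. FCGRT, the heavy chain of the neonatal Fc receptor, which also pairs with beta-2 microglobulin, was 2.17-fold higher on LATS2 than on control, with 236 on LATS2, 128 on LATS2N and 109 on control. HLA-G and HLA-F are non-classical heavy chains. For HLA-G the probe set 211530_x_at read 3813 on LATS2, 3256 on LATS2N and 2189.8 on control, a log2 ratio of 0.80 for LATS2, whereas its 3 other probe sets lay between -0.12 and 0.17 for LATS2. HLA-F read 2457 on LATS2, 2087 on LATS2N and 2098 on control with 1 probe set, and 1826, 2351 and 2041 with another, so the arrays changed order between them.

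MHC class II genes were mostly dim. Of 13 with a probe set, 8 reached the floor on any array, and HLA-DRA, a class II alpha chain, stayed below it. HLA-DRB1 was at least 2.05-fold higher on LATS2 and at least 2.02-fold higher on LATS2N, with 103.5 on LATS2, 101.9 on LATS2N and 44.4 on control. Probe sets that carry HLA-DRB1 among several symbols disagreed: 204670_x_at read 93.0 on LATS2, 118 on LATS2N and 117 on control, 209312_x_at read 61.4, 102 and 118, 215193_x_at read 54.6, 62.2 and 49.0, 221491_x_at read 39.5, 65.4 and 7.48, and 238900_at stayed below the floor. In LATS2 against LATS2N, HLA-DOA was at least 2.20-fold lower, with 16.9 on LATS2 and 111 on LATS2N, and CTSS, a lysosomal protease of the class II route, was 2.24-fold lower, with 59.6 on LATS2 and 133 on LATS2N. The 4 other HLA-DOA probe sets stayed below the floor, and with the median over probe sets neither gene was called. HLA-DQB1, a class II beta chain, and HLA-DMA, which helps load class II peptides, had log2 ratios of 0.05 and 0.06 in LATS2 against control. Among ligands of natural killer and T cell receptors 12 genes had a probe set, 9 of them reached the floor on any array, and none was called. CD47, a signal against phagocytosis, and MICB, a ligand of NKG2D, had log2 ratios to control of 0.01 and -0.10 on LATS2 and 0.16 and 0.01 on LATS2N.

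Among fibroblast and endothelial markers, COL1A1 read 596 on LATS2, 607 on LATS2N and 325 on control and LUM 1884, 1635 and 1519, while COL1A2 and COL3A1 stayed below the floor. Of the 4 genes of that list that reached the floor, 2 were higher and 2 lower on LATS2 than on control, and PECAM1, an endothelial marker, read 85.0, 91.6 and 142.3. Of the leucocyte markers, CD14 read 93.2 on LATS2, 48.4 on LATS2N and 73.5 on control.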
